A study of Mus musculus with 31 samples.

Results

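Translation initiation and elongation factors were followed across the axons and somas of mouse nociceptive neurons. Members were the protein-coding genes whose symbol begins with Eif and a digit from 1 to 6, or with Eef and 1 or 2, without pseudogenes marked -ps. The rule used names and no measured value, and it found 68 genes among 22028 protein-coding genes and 55536 gene identifiers in all. By complex they were 14 subunits of eIF3, 11 genes of the cap-binding group eIF4F with its cofactors, 6 genes of start codon selection, 6 of elongation factor eEF1, 5 of the exchange factor eIF2B and 4 of eIF2. The others were 4 kinases of eIF2, 4 regulators that bind eIF4E, 5 methyltransferases of elongation factors, 3 genes of eIF5A and eIF6, 2 for eEF2 and its kinase, 2 other initiator tRNA factors, the helicase Eif4a3 and the eIF1A-like Eif1ad. The eEF1 list goes by symbol and so holds Eef1e1, a subunit of the tRNA synthetase complex.

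Initiation begins when eIF2, loaded with GTP, brings initiator tRNA to the small ribosomal subunit, which eIF3 scaffolds, while eIF4F binds the mRNA cap and unwinds the leader. The complex scans to a start codon, whose recognition eIF1, eIF1A and eIF5 control, and eIF5B joins the large subunit. In elongation eEF1A delivers aminoacyl-tRNA, the eEF1B subunits recharge it with GTP, eEF2 moves the ribosome along, and eIF5A relieves stalls. Phosphorylation of eIF2, eIF4E-binding proteins and eEF2 sets the rate, and in sensory axons local translation under such control is known from studies of injury and pain sensitization.

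The libraries came from translating ribosome affinity purification (TRAP), in which tagged ribosomes are pulled down and their RNA is sequenced. In Cre mice, Nav1.8-Cre;L10a-eGFP-fl/fl, the recombinase driven by Nav1.8 (sodium channel gene Scn10a) switches on ribosomal protein L10a fused to EGFP. L10a-eGFP-fl/fl mice without Cre gave the controls, which carry RNA recovered without a tagged ribosome, so both genotypes carry the floxed L10a-eGFP allele. Central axons were lumbar dorsal root with spinal cord, peripheral axons were sciatic nerve, and somas were lumbar dorsal root ganglia. Soma sets were separate, since batch 1 paired central axon libraries with one and batch 2 peripheral axon libraries with the other. There were 31 libraries in 8 groups, 4 in each except 3 peripheral axon controls. Other Nav1.8-lineage cells would also be tagged, and the labels give neither the sex nor the age of the mice, nor whether axon and soma libraries came from the same mice. The labels call the libraries biological replicates.

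Total counts per library ran from 3601399 to 19637292. Batch 2 Cre libraries had 4097863 to 15058971 in peripheral axon and 15562715 to 19637292 in somas. Batch 1 Cre libraries had 10447271 to 11149751 in central axon and 7557607 to 11589692 in somas. Summed over 10 nociceptor markers listed to check the tissue, levels were 1825 to 8972 CPM (counts scaled to a common library total) in central axon Cre libraries and 509 to 1395 CPM in their controls. They were 1161 to 4710 CPM in peripheral axon Cre libraries, 536 to 3754 CPM in their controls, and 7522 to 12007 CPM and 7804 to 9553 CPM in the Cre somas of batch 1 and batch 2. The soma controls of batch 1 and batch 2 were at 4731 to 11367 and 4919 to 8258 CPM, overlapping their Cre somas in both batches. Markers of other cells were present in the axon libraries. The 10 Schwann cell markers summed to 11005 to 29051 CPM in peripheral axon Cre libraries and to 662 to 824 CPM in their somas. The 6 skeletal muscle markers reached 9851 CPM in 1 of the batch 1 soma controls. Fewer cells of a type and less RNA per cell cannot be told apart in such bulk libraries.

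Start sequences are shown for members that the peripheral axon results turn on and for the members that open with a pyrimidine run, the terminal oligopyrimidine feature by which many translation-machinery mRNAs are known to be regulated. Of the 68 members, 52 matched a RefSeq start in GRCm38.p6, and the others were not examined. These starts are annotated and were not measured here, so a run that opens the transcript at another base is missed. The shares below therefore do not tell how many members carry the feature. The feature searched was C at the start base followed by 4 bases that are each C or T, on the transcript strand. It was found in 2 of 52 members (3.85%), Eif3f and Eif2s3x, against 3.01% of all genes in the table when the feature had to begin at the start base itself. Each window gives 30 bases before the start and 20 from it, 5′ to 3′, with the pyrimidine run in capitals where it opens the transcript. Eif3f lies on the plus strand (chr7:108934385-108934434), Eif2s3x on the minus strand (chrX:94212632-94212681), Eef1a1 on the minus strand (chr9:78481705-78481754) and Eef1b2 on the plus strand (chr1:63176801-63176850). With the same letters allowed to begin up to 5 bases before or after the start, 26.9% of the 52 members and 21.2% of all genes held them. Eef1a1 is among these members: its pyrimidines run across the annotated start and do not begin at it. For Eef1b2 the letters were not found at the start or within 5 bases of it.
Eif3f: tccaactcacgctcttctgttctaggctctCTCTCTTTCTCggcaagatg
Eif2s3x: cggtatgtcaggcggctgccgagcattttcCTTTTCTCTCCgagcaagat
Eef1a1: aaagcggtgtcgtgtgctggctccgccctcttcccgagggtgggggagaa
Eef1b2: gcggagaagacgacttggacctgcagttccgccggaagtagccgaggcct

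The factor genes together took 1.01 ± 0.0882% of counts in central axon Cre libraries (mean ± SD, n = 4 here and below, unless 3 is given) and 1.05 ± 0.0885% in the batch 1 Cre somas. They took 1.27 ± 0.104% in peripheral axon Cre libraries and 1.15 ± 0.0278% in the batch 2 Cre somas. Controls were close to the Cre libraries of their own tissue, at 1.07 ± 0.0474% in central axon, 1.06 ± 0.123% and 1.15 ± 0.0326% in the somas of batch 1 and batch 2, and 1.30 ± 0.142% (n = 3) in peripheral axon. Most members were detected in the axon libraries, also in those without a tagged ribosome. At least 10 counts were found for 63 to 65 members in each axon Cre library of either kind. The axon controls had 50 to 63 such members in central and 59 to 64 in peripheral axon. The batch 1 soma controls had 45 to 47. Over all genes, 4934 to 7889 reached 10 counts in these soma controls and 12473 to 16509 in the axon Cre libraries. Eif4e1b, an eIF4E-like gene, had no count in any library, and Eif4ebp3 had 2 counts in all.

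**Figure D1:**
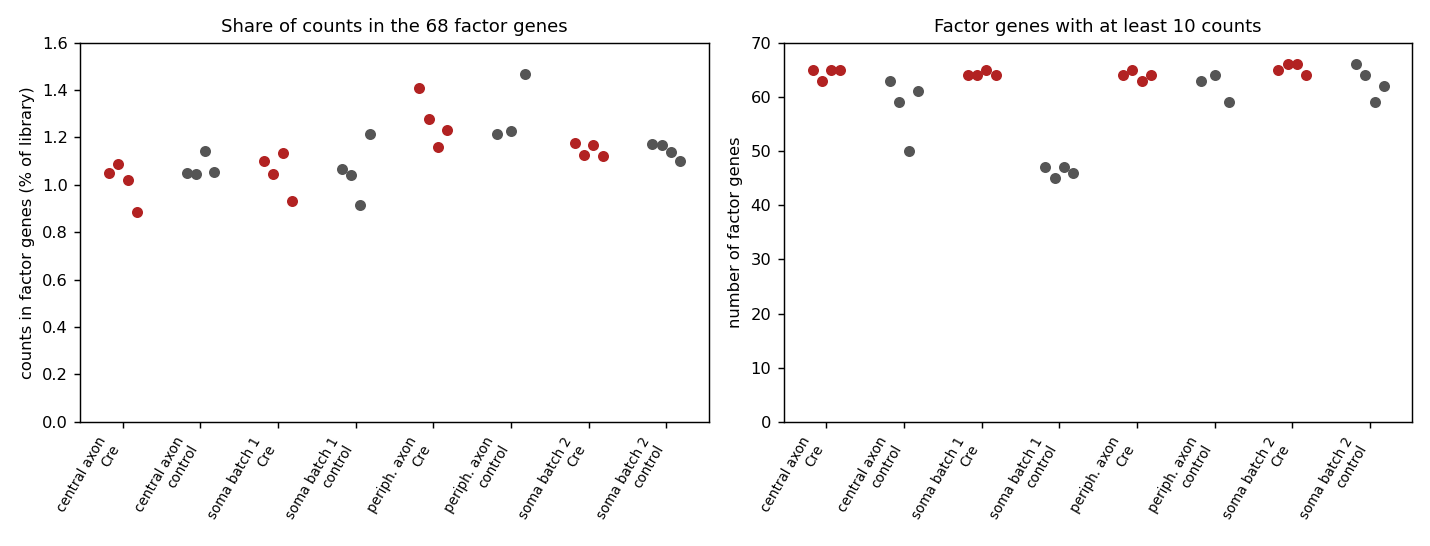
Share of counts in the 68 factor genes (left, % of library) and number of these genes with at least 10 counts (right), one point per library, Cre libraries in red and controls in grey. The batch 1 soma controls, with 45 to 47 genes, sit below every other group, while the axon Cre libraries hold 63 to 65.

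Levels per exon length (TPM, counts divided by union exon length and scaled to a common total) placed Eif5a, Eef1a1 or Eef2 first in each of the 8 groups, with Eif1 or Eif1b among the first 5. Eif5a, whose protein carries hypusine, was the highest member at 1543 ± 468 TPM in central axon Cre libraries, 1655 ± 769 TPM in their somas and 1810 ± 279 TPM in the batch 2 Cre somas. Eef1a1, the common form of eEF1A, was the highest in peripheral axon Cre libraries at 1104 ± 583 TPM, followed by Eif1 at 880 ± 358, Eef2 at 823 ± 239 and Eif5a at 642 ± 207 TPM. These neighbours in the order differed by less than their SDs. Within libraries, the ratio of Eif5a to Eef1a1 in TPM was below 1 in all 4 peripheral axon Cre libraries (median 0.629) and above 1 in all 12 of the other Cre libraries, with medians of 4.08 in central axon, 8.67 in batch 1 somas and 4.33 in batch 2 somas. The controls did not separate so: the median ratio was 0.465 in peripheral axon (n = 3), 0.943 in batch 2 somas, 1.36 in central axon and 2.23 in batch 1 somas. Levels of Eef1a1 are uncertain, since 39.4% of its 50-base words also occur in transcripts of other genes (3.77% for Eif5a).

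Paralogues stood at unequal RNA levels. Eef1a2, the eEF1A form of mature neurons and muscle, stood at 88.2 ± 47.4 TPM in batch 1 Cre somas and at 47.5 ± 15.2, 27.0 ± 20.9 and 22.6 ± 9.03 TPM in Cre libraries of central axon, peripheral axon and batch 2 somas. In the controls it stood at 71.0 ± 9.83 TPM in central axon, 85.1 ± 32.9 in batch 1 somas, 10.6 ± 9.23 (n = 3) in peripheral axon and 54.4 ± 41.2 in batch 2 somas. The Eef1a1 to Eef1a2 ratio in TPM accordingly had a median of 7.08 in central axon and 2.29 in batch 1 somas, and of 36.4 in peripheral axon and 17.6 in batch 2 somas (Cre libraries). Of the helicase pair in eIF4F, Eif4a2 was above Eif4a1 in all 4 central axon Cre libraries (median Eif4a1 to Eif4a2 ratio 0.505), and Eif4a1 was above Eif4a2 in all 4 peripheral axon ones (1.53). Eif1 was below its paralogue Eif1b in all 4 central axon Cre libraries (median ratio 0.561) and above it in all 4 peripheral axon ones (1.67). The same order of these 2 pairs held in the axon controls, except for 1 of 4 central axon controls in which Eif4a1 was above Eif4a2. The Cre somas differed by batch too. Their median Eif4a1 to Eif4a2 ratio was 0.478 in batch 1 and 0.894 in batch 2, and that of Eif1 to Eif1b was 0.757 and 1.13. Axon type and batch cannot be told apart in these ratios. The ratios of both pairs are uncertain in size, since part of the 50-base words of these genes also occur in transcripts of other genes. The shares were 28.4% for Eif4a1, 10.6% for Eif4a2, 19.2% for Eif1 and 0% for Eif1b.

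Of the cap-binding proteins, Eif4e stood at 43.1 ± 12.2 TPM in central axon, 21.9 ± 3.77 in batch 1 somas, 27.3 ± 18.5 in peripheral axon and 31.2 ± 10.3 in batch 2 somas (Cre). Its relative Eif4e2, which binds the cap more weakly, was above it in all 16 Cre libraries, with medians of the Eif4e to Eif4e2 ratio between 0.380 and 0.603. Eif4e3, the third form, stood between 23.2 ± 7.49 TPM in peripheral axon and 34.1 ± 8.69 TPM in batch 1 somas among the Cre groups. In the control groups Eif4e3 stood at 5.61 ± 7.13 TPM in central axon, 6.41 ± 8.72 (n = 3) in peripheral axon, 25.7 ± 7.17 in batch 2 somas and 72.6 ± 110 in batch 1 somas. Among scaffolds, Eif4g2, which lacks the eIF4E-binding site, exceeded Eif4g1 in all 16 Cre libraries, with group medians of the ratio from 1.77 to 2.62. Eif4g3 was below Eif4g1 in all 31 libraries. Eif5a exceeded Eif5a2 in all 31 libraries too. Of the eIF4E-binding proteins Eif4ebp1 exceeded Eif4ebp2 in all 16 Cre libraries, with medians of the ratio of 2.81 in central axon, 6.37 in batch 1 somas, 4.83 in peripheral axon and 9.01 in batch 2 somas.

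**Figure D2:**
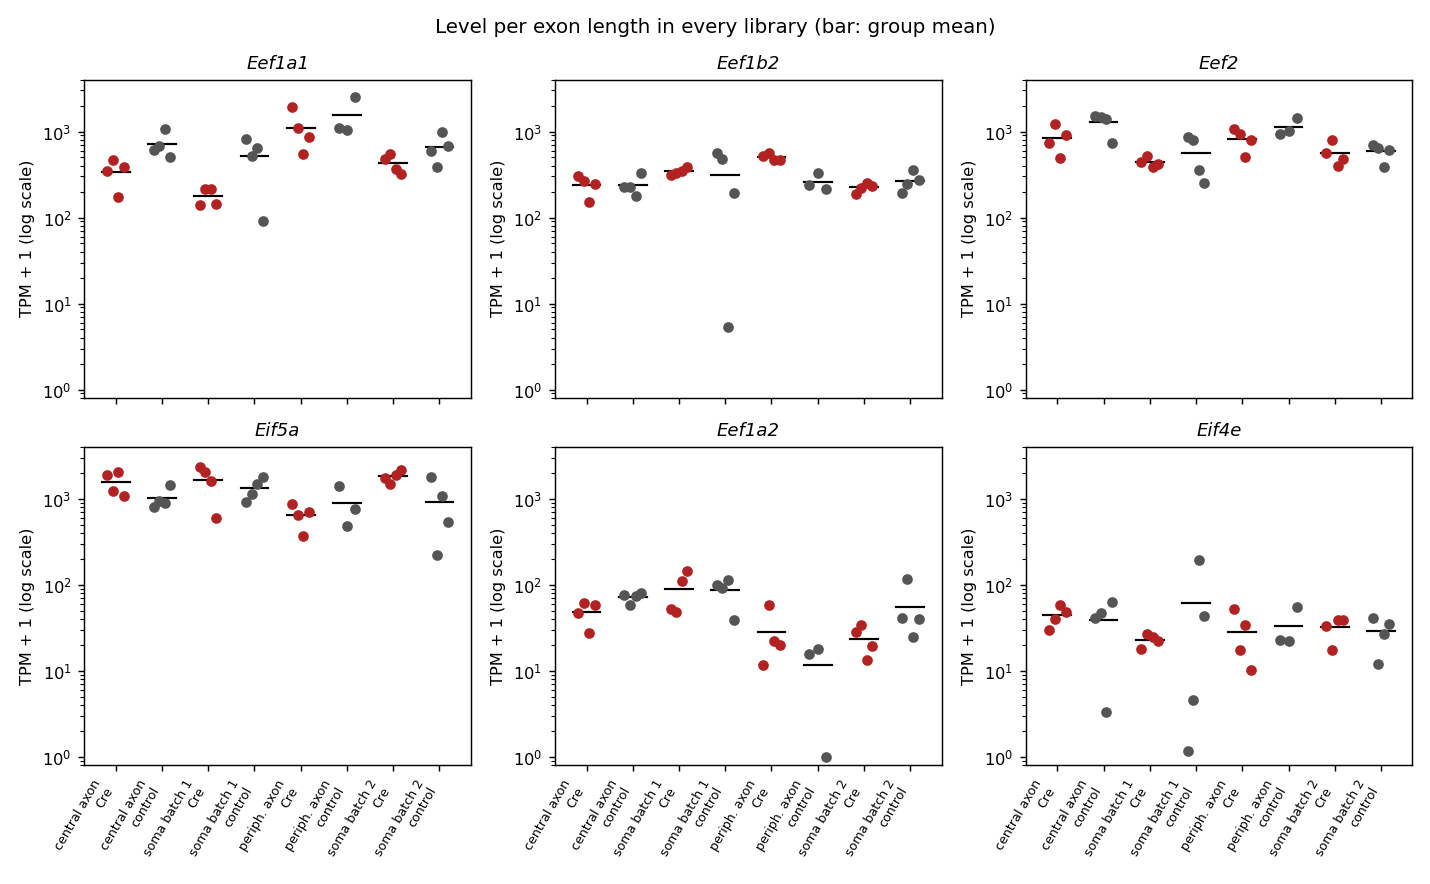
TPM + 1 on a log axis for 6 members in all 31 libraries, Cre in red, control in grey, with the group mean as a bar. Eef1a1 is highest in the peripheral axon groups and Eif5a is highest in the batch 2 Cre somas.

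The question of the next comparisons was how Cre libraries differ from Cre-negative controls of the same tissue. No factor gene passed edgeR's quasi-likelihood test at a Benjamini-Hochberg adjusted p under 0.05 (called below) in any of the 4 tissues. In central axon 0 of 64 tested members were called, against 0.0141% of all genes, and the median log2 fold change was 0.01 for members and 0.11 for all genes. In peripheral axon 0 of 64 were called against 0% of all genes, with medians of 0.07 and 0.07. In batch 1 somas 0 of 63 were called against 4.42% (4.37% higher and 0.0514% lower in Cre), with medians of -0.92 and -0.45, and in batch 2 somas 0 of 65 against 0%, with medians of 0.17 and 0.06. The batch 1 soma medians turned positive with library size alone, to 0.10 for members and 0.36 for all genes, so the members' sign there depends on the scaling. An unadjusted p under 0.05 was reached by 3, 3, 6 and 5 members in the same order (4.82%, 3.68%, 15% and 16.4% of all genes). DESeq2 called 0 members in both axons and in batch 2 somas, and 3 in batch 1 somas (Eef1a1, Eif2s3y and the eIF3 subunit Eif3c, named after their values were seen). Over all genes DESeq2 called 216 in central axon, 27 in peripheral axon, 1902 in batch 1 somas and 1163 in batch 2 somas. The spread was wide: the median SD of log2 CPM over members was 0.397 and 0.664 in central axon Cre and control libraries and 1.53 in batch 1 soma controls.

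In central axon the members with the smallest p were Eif4b, a cofactor of the eIF4A helicase, Eef1a1 and the scaffold Eif4g1. Eif4b was at 91.6, 87.2, 59.2 and 89.4 normalised CPM (CPM after TMM scaling) in the Cre libraries and 139, 210, 644 and 112 in the controls, a log2 fold change of -1.75 ± 0.56 (SE; adjusted p = 0.525, edgeR quasi-likelihood). The Eif4b groups did not overlap, as for 8 of 64 members (2 lower and 6 higher in Cre) and 8.14% of all genes (1.37% and 6.77%). Eef1a1 was at 362, 362, 138 and 279 normalised CPM in Cre and 425, 447, 878 and 412 in control libraries (log2 -0.92 ± 0.39, adjusted p = 0.983). Its groups did not overlap either, and the Cre values were the lower ones. Eif4g1 gave -0.82 ± 0.35 on the log2 scale (adjusted p = 0.985), Eef2 -0.45 ± 0.34 and Eif4e 0.35 ± 0.77 (adjusted p of 1 for both, edgeR), each with overlapping groups.

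In peripheral axon the smallest p belonged to Eif2b1 (log2 -1.60 ± 0.60), a regulatory subunit of eIF2B, to the eEF1A lysine methyltransferase Eef1akmt2 (-1.62 ± 0.61) and to Eef1b2 (1.09 ± 0.45), each with an adjusted p of 1 in edgeR. Eef1b2, an exchange factor for eEF1A, was at 440, 653, 687 and 514 normalised CPM in Cre and at 206, 447 and 155 in control libraries. One control lay just above the lowest Cre value. Eef1a1 gave -0.26 ± 0.45, Eef2 -0.27 ± 0.41 and Eif4e 0.06 ± 0.59 on the log2 scale, all with an adjusted p of 1. Groups did not overlap for 8 of 64 members, 4 in each direction, against 6.36% of all genes, 3.77% higher and 2.59% lower.

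In batch 1 somas the controls spread so far that the fitted values have little hold. Eif4e was at 27.4, 38.0, 45.2 and 28.0 normalised CPM in Cre libraries and at 0.240, 5.38, 9282 and 67.8 in the controls, where the third value is control replicate 3, whose TMM scaling factor was 0.0547. Log2 fold changes were -6.08 ± 2.64 for Eif4e (adjusted p = 0.305, edgeR), -4.87 ± 2.09 for Eef1a1 (0.300) and -2.84 ± 1.72 for Eef2 (0.418). Eif2s3y, whose controls held at most 1 count, had the smallest p (adjusted p = 0.282). Groups did not overlap for 3 of 63 members, all higher in Cre, against 14.5% of all genes higher, 1.37% lower and 15.8% in all. Without control replicate 3, 4 members were called, all higher in Cre, while 3094 of all genes were called. The 4 were Eif2s3y, the eIF2 alpha subunit Eif2s1, the stress kinase Eif2ak3 and Eef1akmt4. Without Cre replicate 4, Eef1akmt4 alone was called (548 of all genes), and both sets are named after their values were seen. Eif4e without 1 library ranged from -6.42 to 0.51 on the log2 scale.

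In batch 2 somas the smallest p belonged to the eIF3 subunit Eif3g, Eif5a and the heme-regulated eIF2 kinase Eif2ak1. Eif5a was at 1612, 1777, 2297 and 2227 normalised CPM in Cre and at 1562, 261, 839 and 451 in control libraries, where every Cre value was above every control (log2 1.34 ± 0.48, adjusted p = 0.197, edgeR). Eif3g was at 321, 291, 489 and 393 in Cre and at 244, 69.3, 164 and 190 in control libraries (1.16 ± 0.36, adjusted p = 0.147). Eif2ak1 gave 0.84 ± 0.32 (0.218). For Eif4e, Eef1a1 and Eef2 the values were 0.49 ± 0.38, -0.29 ± 0.29 and 0.17 ± 0.36 (0.564, 0.661 and 0.847). Groups did not overlap for 6 of 65 members, all higher in Cre, against 8.12% of all genes higher, 5.19% lower and 13.3% in all. Without control replicate 5, the control with the values nearest to the Cre libraries, 5 members were called higher in Cre. In that fit 1826 of all genes were called. The 5 were Eif3g, Eif5a, Eif2ak1, the eIF2B subunit Eif2b2 and the helicase cofactor Eif4h. Control replicate 5 had 18080478 counts in all, within the 15562715 to 19637292 of the Cre somas. Control replicates 6, 7 and 8 had 4053998, 3601399 and 4515978. The part of depth in these calls was not tested.

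Among Cre libraries, central axons were then compared with the somas of their batch. Of 65 tested members 7 were called, all lower in axon, against 5.11% of all genes called lower and 8.63% called higher (13.7% in all). An unadjusted p under 0.05 was reached by 17 members and 29.2% of all genes. The 7 were the eIF2 beta subunit Eif2s2, the eEF1 genes Eef1a2, Eef1b2 and Eef1g, the eIF3 subunit Eif3k, and the start codon genes Eif1 and Eif1ax. The median log2 fold change was -0.37 for members and 0.05 for all genes, and 46 of 65 members had a negative value.

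Eif2s2 (chromosome 2, 154871410 to 154892935, minus strand, GRCm38), which binds the partners of eIF2 in GTP exchange, was at 131, 93.4, 142 and 61.5 normalised CPM in axons and at 238, 160, 442 and 585 in somas. The groups did not overlap, and the log2 fold change was -1.74 ± 0.43 (adjusted p = 0.0185, edgeR quasi-likelihood), or 3.33-fold lower. Eef1a2 was at 34.7, 33.9, 14.8 and 28.5 in axons against 53.6, 43.2, 131 and 128 in somas (log2 -1.67 ± 0.43, adjusted p = 0.0224). Eef1b2 was at 272, 183, 104 and 147 against 395, 370, 498 and 420 (-1.25 ± 0.33, adjusted p = 0.0262). All axon libraries were below all somas for both genes, with the closest values at 34.7 and 43.2 for Eef1a2.

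Eif3k, an accessory eIF3 subunit, was at 222, 178, 110 and 105 normalised CPM in central axons and at 401, 306, 525 and 268 in somas (log2 -1.29 ± 0.35, adjusted p = 0.0278, edgeR). Eif1, which keeps the scanning complex open until a start codon is found, was at 332, 203, 178 and 138 against 519, 416, 528 and 420 (-1.15 ± 0.33, adjusted p = 0.0348). Neither gene's groups overlapped. Eif1ax, its partner in scanning, fell by 1.39 ± 0.41 on the log2 scale (adjusted p = 0.0382) and Eef1g, the gamma subunit of eEF1B, by 1.21 ± 0.38 (adjusted p = 0.0478), likewise without overlap. Reads of Eef1g are uncertain, since 44.2% of its 50-base words also occur in transcripts of other genes.

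The number of calls changed when single libraries were left out, and so did that of all genes (1990 in the main fit). Member calls were 0 without central axon replicate 2 or without replicate 4 (942 and 822 of all genes). Only Eif2s2 was called without central axon replicate 3 or without soma replicate 3 (1049 and 1386 of all genes). Member calls were 2 without soma replicate 1, 4 without soma replicate 2 and 11 without soma replicate 4 (1242, 1332 and 2589 of all genes). Every member call in these fits was lower in axon. With counts scaled by library size alone, Eif2s2 stayed the only member called, while 2439 of all genes were called. The median moved to 0.09 for members and 0.50 for all genes, so the members lay below the median of all genes on both scales. Groups did not overlap for 12 members, 11 lower and 1 higher in axon, against 8.67% of all genes lower, 13.5% higher and 22.1% in all.

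By complex, start codon selection had 2 of 6 members called and a median of -0.95 on the log2 scale. The eEF1 list, which holds Eef1e1, had 3 of 6 and -0.91, eIF2 1 of 4 and -0.13, and eIF3 1 of 14 and -0.40. None was called among the 5 eIF2B subunits (median 0.00), the 10 tested eIF4F genes (-0.31), the 4 eIF2 kinases (0.30), the 3 tested eIF4E-binding regulators (0.09), the 3 genes of eIF5A and eIF6 (-0.70), the 2 of eEF2 and its kinase (0.32) or the 4 tested methyltransferases (-0.43). Eef1a1, at 308, 312, 115 and 230 normalised CPM in axons and 170, 238, 301 and 149 in somas, gave 0.17 ± 0.36 (adjusted p = 0.801, edgeR). Eef2 gave 0.16 ± 0.34 (0.801) and Eif4e 0.16 ± 0.29 (0.758), both with overlapping groups. Thus within eEF1, Eef1a2, Eef1b2 and Eef1g were called lower and Eef1a1 was not called.

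Markers of spinal cells moved with this comparison. The 6 markers of inhibitory and motor spinal neurons summed to 89.5 to 305 CPM in central axon Cre libraries and to 1.36 to 6.99 CPM in the somas, and the 6 astrocyte markers to 692 to 2711 and 167 to 337 CPM. In the central axon controls the same lists summed to 134 to 609 and 2131 to 3772 CPM. Their part in the factor gene values was not tested. In the controls, mean TPM was lower in axon than in soma for 4 of the 7 called genes (Eif2s2, Eef1a2, Eef1b2 and Eif1) and higher for Eif3k, Eif1ax and Eef1g.

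Peripheral axons differed from the somas of their batch in both directions. Total counts differed too, at 4112022, 15058971, 4097863 and 5768003 in axons and at least 15562715 in somas. The part of this depth difference in the calls was not tested. Of 65 tested members 14 were called, 6 higher and 8 lower in axon, against 18.7% of all genes called higher and 12.5% lower (31.2% in all). An unadjusted p under 0.05 was reached by 26 members and 42.9% of all genes. The median log2 fold change was 0.02 for members and -0.03 for all genes. Higher were the eIF4E-binding repressors Eif4ebp2 and Eif4ebp1, Eif5b, the eEF1 genes Eef1a1 and Eef1b2, and the eIF3 subunit Eif3f. Lower were Eif5a, Eif6, Eif2b1, Eif3g, the helicase Eif4a2, Eif1a, Eef1e1 and Eif2d.

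Among the higher ones, Eif4ebp2 (chromosome 10, 61428491 to 61452661, minus strand), the form of the repressor abundant in brain, was at 54.4, 40.8, 27.8 and 58.4 normalised CPM in axons and at 11.8, 17.4, 6.49 and 8.98 in somas. Its groups did not overlap and the log2 fold change was 2.02 ± 0.40, or 4.06-fold (adjusted p = 0.00337, edgeR). Eif5b was at 219, 361, 385 and 343 against 124, 152, 177 and 126 (1.18 ± 0.26, adjusted p = 0.00619), also without overlap; 16.8% of its exon length lies opposite Rev1 on the other strand, and the strand setting of the counting is not given in the sources used here. Eef1a1 (chromosome 9, 78478449 to 78489151, minus strand) was at 1393, 1141, 733 and 871 in axons against 467, 657, 462 and 344 in somas (1.10 ± 0.32, adjusted p = 0.0214). Its lowest axon library lay above the highest soma, and 39.4% of its 50-base words also occur in transcripts of other genes.

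Eef1b2 (chromosome 1, 63176825 to 63180486, plus strand) was at 388, 599, 622 and 476 normalised CPM in peripheral axons and at 186, 267, 321 and 252 in somas (log2 1.02 ± 0.28, adjusted p = 0.0158, edgeR). Eif4ebp1 was at 156, 68.7, 55.1 and 48.7 in axons and at 29.8, 35.6, 50.01 and 38.8 in somas (1.09 ± 0.38, adjusted p = 0.0485). Eef1b2 did not overlap between groups, while 1 axon library of Eif4ebp1 fell among the somas and another stood far above the rest. Eif3f rose by 0.87 ± 0.31 on the log2 scale (adjusted p = 0.0495), with overlapping groups. Eif4ebp1 and Eif3f were each called in 4 of 14 alternative fits.

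Among the lower ones, Eif5a (chromosome 11, 69916714 to 69921958, minus strand) was at 597, 652, 461 and 666 normalised CPM in axons and at 1595, 1701, 2239 and 2197 in somas. The ranges were far apart, and the log2 fold change was -1.70 ± 0.29, or 3.25-fold lower (adjusted p = 0.00146, edgeR). Eif2b1 was at 20.1, 22.7, 18.4 and 35.8 against 83.7, 45.1, 85.1 and 79.6 (-1.60 ± 0.32, adjusted p = 0.00367). Eif3g was at 105, 185, 160 and 169 against 317, 279, 476 and 387 (-1.24 ± 0.28, adjusted p = 0.00623). In none of these 3 genes did an axon library reach a soma value.

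Eif4a2, the eIF4A form prominent in neurons, was at 73.5, 120, 113 and 65.8 normalised CPM in peripheral axons and at 202, 186, 261 and 210 in somas (log2 -1.21 ± 0.27, adjusted p = 0.00630, edgeR). Eif6, which holds the ribosomal subunits apart, was at 168, 206, 191 and 178 against 289, 363, 477 and 392 (-1.03 ± 0.25, adjusted p = 0.00830). Both were separated between groups. Eef1e1, a subunit of the tRNA synthetase complex, gave -1.30 ± 0.34 (0.0132), Eif1a -1.04 ± 0.29 (0.0173) and Eif2d, an initiator tRNA factor, -1.25 ± 0.38 (0.0263). Eif5a, Eif3g, Eif4a2 and Eif6 were called in all 14 alternative fits.

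By complex, all 5 eIF2B subunits had a negative value (median -0.70 on the log2 scale), of which Eif2b1 was called, and all 3 tested eIF4E-binding regulators a positive one (median 1.09), of which 2 were called. Of the eEF1 list, 2 were called higher (Eef1a1 and Eef1b2) and 1 lower, Eef1e1 of the tRNA synthetase complex (median 0.51). Of start codon selection 1 was called higher and 1 lower (-0.14), and of the 14 eIF3 subunits 1 and 1 (0.27). In the eIF4F group 1 of 10 tested was called (-0.37), in eIF2 0 of 4 (0.56), among the eIF2 kinases 0 of 4 (0.06) and among the methyltransferases 0 of 4 tested (-0.46). Eef2 was at 1027, 1314, 892 and 1063 normalised CPM in axons and 729, 1289, 653 and 680 in somas (0.36 ± 0.31, adjusted p = 0.405, edgeR), and Eif4e gave -0.38 ± 0.45 (0.545). Both overlapped between groups.

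**Figure D3:**
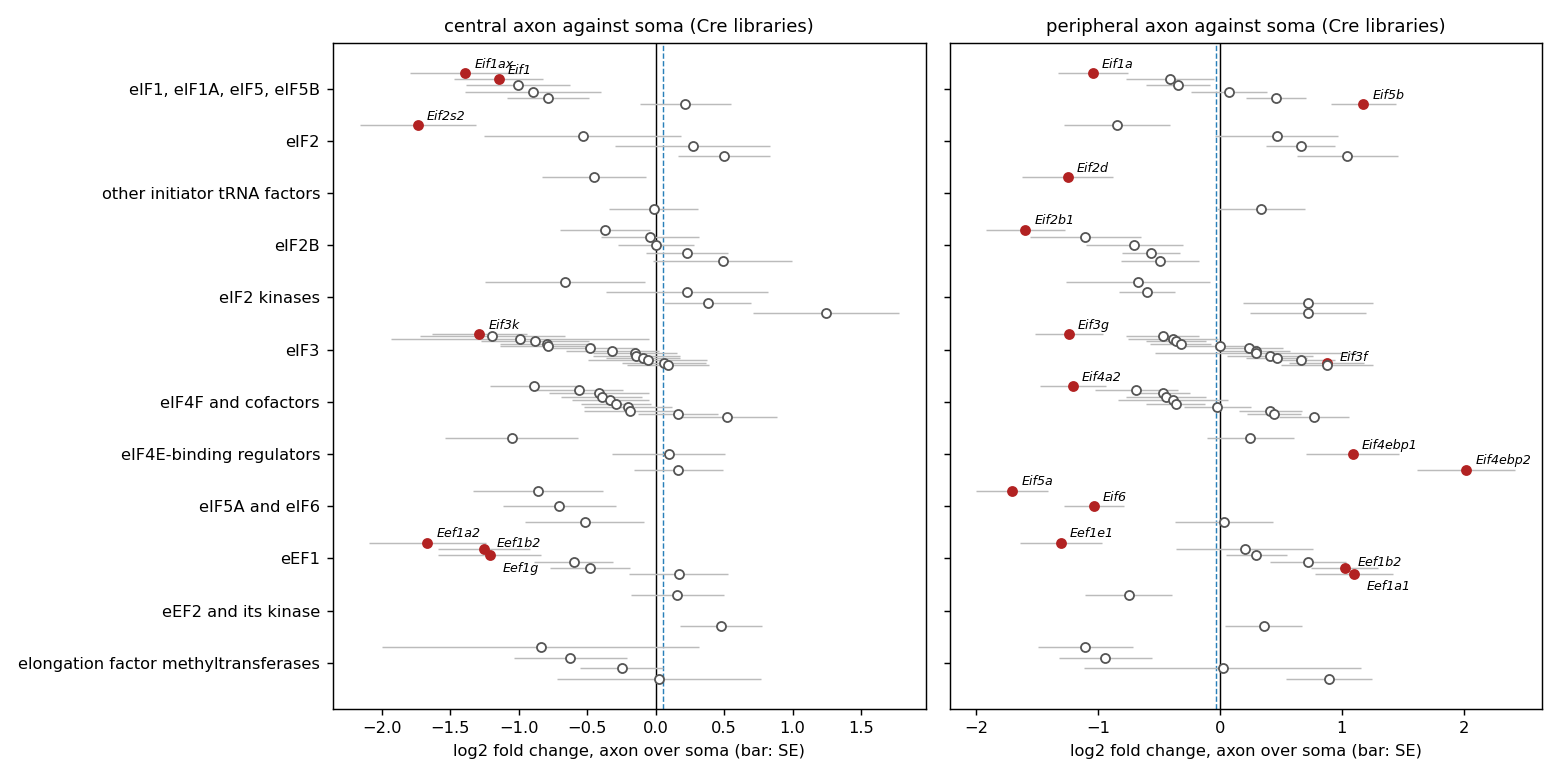
Log2 fold change of axon over soma among Cre libraries, with its SE, for each tested member of 12 complexes; Eif4a3 and Eif1ad, alone in their lists, are not drawn. Filled red points passed an adjusted p of 0.05, the dashed line is the median of all genes, and the called points lie on the negative side in central axon and on both sides in peripheral axon.

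The split of these calls differed between fits. It was 6 higher and 8 lower with TMM, 12 and 7 with library size alone, 4 and 12 with RLE factors, 4 and 14 with DESeq2, 4 and 10 with no low-count filter, and 5 and 14 without peripheral axon replicate 1. Over all genes the calls were 4818, 4778, 5031, 6132, 5643 and 6055 in the same order. In the fit of all 4 groups of the batch the split was 0 higher and 4 lower (1404 of all genes), so none of the 6 higher calls stayed. The count of members called was 9 without soma replicate 5, 9 without soma replicate 7 and 8 without soma replicate 8 (3617, 3366 and 3220 of all genes). Groups did not overlap for 18 members, 7 higher and 11 lower in axon, against 18.6% and 20.1% of all genes (38.7% in all).

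Markers of Schwann cells, fibroblasts and muscle also moved with this comparison. The Schwann cell sums are given above. The 6 fibroblast markers summed to 3816 to 6686 CPM in axon and 173 to 364 CPM in soma Cre libraries. The 6 skeletal muscle markers summed to 624 to 2450 and 15.5 to 80.2 CPM. The peripheral axon controls held these lists too, at 8911 to 16274 CPM for Schwann cells, 5224 to 19577 for fibroblasts and 977 to 19273 for muscle. In the controls, mean TPM was higher in axon than in soma for 5 of the 6 genes called higher, at 1540 and 660 for Eef1a1, 22.6 and 7.34 for Eif4ebp2, 139 and 55.4 for Eif5b, 183 and 33.8 for Eif4ebp1 and 269 and 220 for Eif3f. For Eef1b2 the control means were 260 in axon and 266 in soma. Of the 8 called lower, 5 had a lower control mean in axon (Eif5a, at 880 and 905, Eif4a2, Eif6, Eef1e1 and Eif1a), while Eif2b1, Eif3g and Eif2d had a higher one. The part of the other cells in the factor gene values was not tested.

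Whether axon and soma differ more in Cre than in control libraries was tested as a difference of differences. No member was called in central axon (0 of 65, against 0% of all genes) or in peripheral axon (0 of 64, against 0.00636%) by edgeR. An unadjusted p under 0.05 was reached by 5 and 4 members (20.4% and 9.74% of all genes), and DESeq2 called 1 in each, Eef1akmt4 and Eif3g. Over all genes DESeq2 called 567 in central axon, and its count in peripheral axon is not given here. Without batch 1 soma control replicate 3 edgeR called 1 in central axon, Eif2s1. In peripheral axon the smallest p belonged to Eif3g (log2 -1.83 ± 0.53, adjusted p = 0.301), Eif2b1 (-2.68 ± 0.99, 0.372) and Eif5a (-1.62 ± 0.67, 0.440). Eif3g there was at 110, 190, 160 and 166 normalised CPM in axon and 350, 318, 531 and 439 in soma Cre libraries, and at 201, 232 and 278 and at 264, 73.9, 167 and 190 in the controls. The Cre axon values were thus the low ones among axons and the Cre somas the high ones among somas.

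In central axon the smallest p belonged to Eif3g (log2 -4.41 ± 1.64, adjusted p = 0.144), Eef1akmt4 (0.155, with every soma control at 0) and Eif2b5 (-4.24 ± 1.65, 0.156, edgeR). Eif2b5, the catalytic subunit of eIF2B, was at 110, 94.1, 159 and 118 normalised CPM in axon and 98.8, 84.2, 107 and 85.7 in soma Cre libraries. Its controls were at 139, 152, 290 and 115 in axon and at 0.121, 0.276, 5.13 and 23.2 in soma, so the soma controls alone stood apart. For Eif4e, Eef1a1 and Eef2 the differences were 2.73 ± 1.85, 0.98 ± 0.99 and 0.01 ± 0.71 in central axon (adjusted p of 0.438, 0.653 and 1). In peripheral axon they were -0.53 ± 0.73, -0.05 ± 0.51 and -0.50 ± 0.54 (0.888, 0.992 and 0.842).

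Each kind of axon was then set against the Cre somas of its own batch and the differences were compared, since batch and axon type cannot be told apart in a direct comparison. Of 66 tested members 9 were called, against 13.1% of all genes: 7 lower in central axon relative to soma (5.88% of all genes) and 2 higher (7.2%). An unadjusted p under 0.05 was reached by 21 members and 28.6% of all genes. Lower were Eef1b2, Eif2s2, Eif1, Eef1g, Eif3j1, Eif5b and Eif4ebp1, and higher were Eif2b1 and Eif4a2. The median was -0.17 for members and 0.26 for all genes.

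Eef1b2 showed opposite calls, at 273, 185, 105 and 157 normalised CPM in central axons and 391, 379, 451 and 409 in their somas, but 383, 581, 600 and 452 in peripheral axons and 193, 280, 323 and 263 in theirs. The difference of the log2 fold changes was -2.11 ± 0.42 (adjusted p = 0.00335, edgeR), and it was called in all 21 alternative fits, as was that of Eif2s2. Eif2s2 was at 131, 94.5, 143 and 65.6 in central axons and 236, 163, 401 and 570 in their somas, and at 179, 333, 372 and 241 in peripheral axons and 197, 188, 220 and 154 in theirs (-2.22 ± 0.51, adjusted p = 0.00881). The batch 1 somas of Eif2s2 ranged widely, while the batch 2 somas lay close together.

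Eif1 was at 333, 205, 180 and 147 normalised CPM in central axons against 515, 425, 479 and 409 in somas, and at 850, 654, 656 and 596 in peripheral axons against 495, 526, 581 and 536 in somas (difference -1.45 ± 0.39, adjusted p = 0.0193, edgeR). Eef1g was at 38.4, 32.8, 14.9 and 24.2 against 48.9, 44.9, 82.2 and 65.0, and at 186, 299, 369 and 167 against 129, 218, 164 and 150 (-1.75 ± 0.47, adjusted p = 0.0202). Both were below soma in every central axon library, and Eif1 was above soma in every peripheral one. Eif2b1 was at 68.6, 54.5, 51.7 and 57.6 against 63.4, 72.1, 68.9 and 22.7 in batch 1 and at 19.9, 22.0, 17.7 and 33.9 against 86.7, 47.4, 85.6 and 83.0 in batch 2 (1.73 ± 0.49, adjusted p = 0.0264).

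The remaining differences were -1.67 ± 0.52 for the eIF3 subunit Eif3j1 (adjusted p = 0.0394, edgeR), -1.88 ± 0.59 for Eif5b (0.0420), 1.08 ± 0.35 for Eif4a2 (0.0483) and -1.98 ± 0.65 for Eif4ebp1 (0.0492). Eif3j1 shares 36.9% of its 50-base words with other genes. Eef1a1, Eif4e and Eef2 were not called (-0.76 ± 0.49, 0.71 ± 0.56 and -0.03 ± 0.45, adjusted p of 0.318, 0.430 and 0.990). The count of calls was 5 without central axon replicate 3 or 4, batch 1 soma replicate 3 or batch 2 soma replicate 7, 3 without batch 2 soma replicate 5 or 8, and 16 with DESeq2. The calls over all genes in these fits are not given here, so a change particular to the members cannot be read from these counts.

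**Figure D4:**
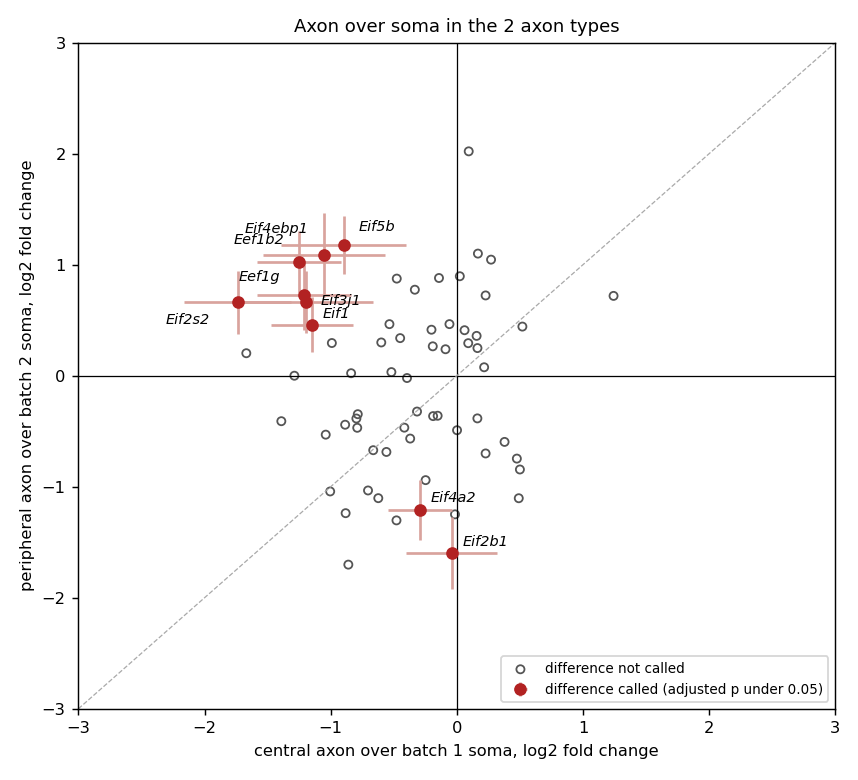
Log2 fold change over soma in central axons (x) against peripheral axons (y) for members tested in both, Cre libraries; the dashed line marks equal values. The 9 members whose difference was called are red with their SEs, 7 of them left of and above the dashed line and 2, Eif4a2 and Eif2b1, below it.

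The Cre somas of the batches, of one genotype and tissue, differed in 6 of 65 tested members (9.23%, against 9.69% of all genes), 1 higher and 5 lower in batch 1 (1.36% and 8.34% of all genes). An unadjusted p under 0.05 was reached by 15 members and 19.3% of all genes. Eef1a2 was higher, at 46.2, 37.8, 113 and 107 normalised CPM in batch 1 and 20.2, 31.3, 11.5 and 15.7 in batch 2 (log2 1.95 ± 0.43, adjusted p = 0.00931, edgeR). Lower were Eif2ak1 (-1.67 ± 0.24, adjusted p = 0.000507), Eef1g (-1.47 ± 0.29, 0.00473), Eef1a1 (-1.28 ± 0.31, 0.0169), Eif4a1 (-1.34 ± 0.32, 0.0177) and Eef2kmt, the methyltransferase of eEF2 (-1.95 ± 0.51, 0.0290). None of the 6 overlapped between batches, as for 13 members in all, 3 higher and 10 lower in batch 1, and 16.8% of all genes (3.52% and 13.2%).

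Eif2ak1 was at 42.5, 49.95, 46.2 and 30.2 normalised CPM in batch 1 Cre somas and at 121, 124, 152 and 141 in batch 2. Eef1g was at 42.5, 38.4, 78.5 and 55.5 against 115, 198, 146 and 136. Eef1a1 was at 147, 208, 261 and 124 against 431, 625, 415 and 325. Every batch 1 value of the 3 genes was below every batch 2 value. Eif4a1 was at 31.4, 53.3, 93.0 and 48.5 against 156, 112, 141 and 163, and Eef2kmt at 1.85, 3.86, 10.6 and 2.51 against 14.9, 17.1, 16.5 and 24.7. Eif4e and Eef2 gave -0.50 ± 0.30 and -0.37 ± 0.29 (adjusted p of 0.433 and 0.570). Eef1a2 and Eef1a1 thus stood in opposite order between batches before any axon was considered.

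The gamma subunit of eIF2, which holds the initiator tRNA, is encoded by Eif2s3x on chromosome X (94188707 to 94212862) and Eif2s3y on chromosome Y (1010543 to 1028847). Eif2s3y was detected in all 16 Cre libraries, from 5.28 to 62.5 CPM, and in all 7 batch 2 controls, from 11.1 to 348 CPM. In central axon controls it was at 5.25, 11.4, 0 and 0 CPM, and in batch 1 soma controls at 0, 0, 0.108 and 0 CPM, the single nonzero value being 1 count. For the 5 libraries at 0, the limit of 3 counts corresponds to 0.307 to 0.376 CPM. Eif2s3x was at 2.43 to 12.6 CPM in the Cre libraries, at 2.75 to 19.0 CPM in the axon and batch 2 soma controls, and at 0, 0, 3.99 and 24.4 CPM in batch 1 soma controls. Per exon length Eif2s3y exceeded Eif2s3x in all 16 Cre libraries. The counts of Eif2s3x are uncertain, since 34.6% of its 50-base words also occur in other genes, while Eif2s3y shares none.

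**Figure D5:**
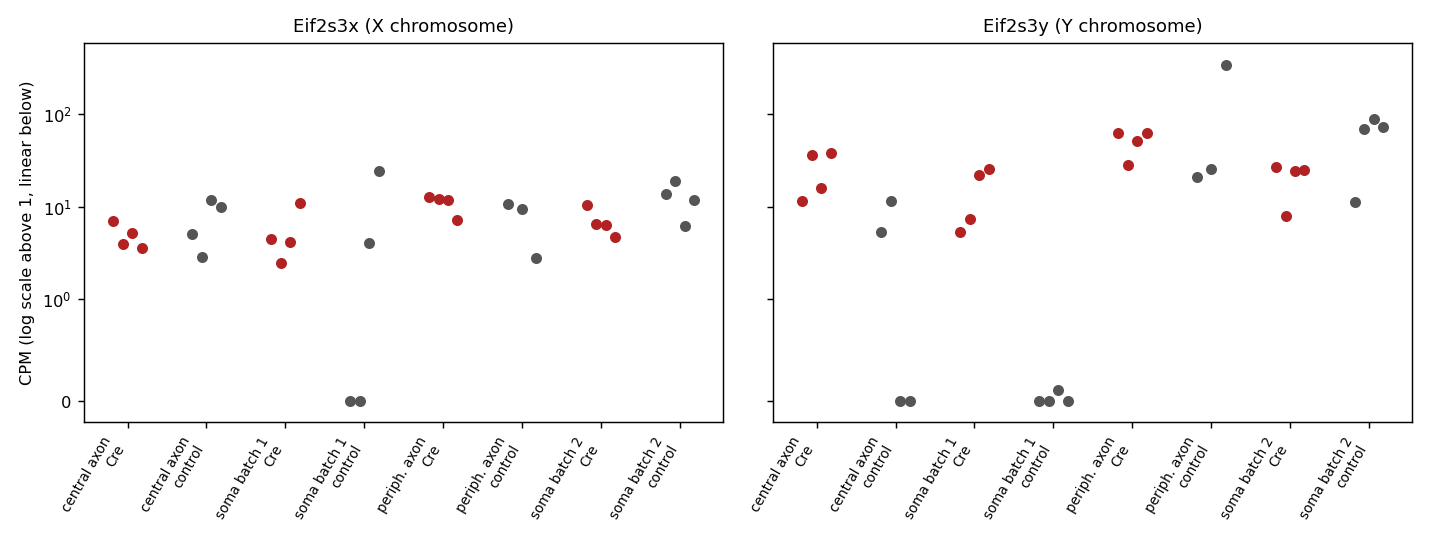
CPM of Eif2s3x (left) and Eif2s3y (right) in every library, on an axis that is logarithmic above 1 and linear below, Cre in red and control in grey. Eif2s3y is at or near 0 in 2 central axon controls and in all 4 batch 1 soma controls, and reaches 348 CPM in 1 peripheral axon control.

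Other genes of translation, 40 outside the Eif and Eef names (cap and poly(A) binding, helicases, termination and recycling, signalling and ribosome-associated), were counted from the same fits. In central axon against soma 8 of 40 were called, 2 higher and 6 lower, against 13.7% of all genes (8.63% higher and 5.11% lower). Higher were Tsc2, the inhibitor upstream of mTORC1 (log2 1.53 ± 0.39, adjusted p = 0.0225, edgeR), and the kinase Rps6ka1 (1.84 ± 0.54, 0.0400). The lowest p belonged to the poly(A)-binding partner Paip1, at -1.85 ± 0.45 (0.0172). In peripheral axon against soma 11 of 40 were called, a smaller share than the 31.2% of all genes, with 10 higher (18.7% of all genes) and 1 lower (12.5%). Among the higher ones were Pdcd4, a repressor of the helicase eIF4A (2.55 ± 0.38, 0.000574), the poly(A)-binding protein Pabpc1 (1.85 ± 0.30, 0.000920) and the ribosomal scaffold Rack1 (1.43 ± 0.33, 0.00720). Rheb, the activator of mTORC1, was the lower one (-1.30 ± 0.28, 0.00543). None was called between Cre and control libraries in any tissue, and 9 differed between central and peripheral axons relative to soma, 1 higher and 8 lower in central axon, against 13.1% of all genes (7.2% and 5.88%).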

How the data were processed

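The authors deposited raw counts per gene and library in 2 tables, one per batch; per the submitters' processing notes STAR 2.7.2b and the build mm10 were used, and the counting program and its strand setting are not given in the sources used here. Symbols, exons and coordinates came from GENCODE M21 (GRCm38), start sequences from RefSeq (GRCm38.p6). Ribosome-associated RNA, which the labels' protocols put below 1 ng in somas and below 100 pg in axons, was amplified with a SMART-Seq kit without molecular identifiers, so limits cover counting error only. One name heads 2 soma control columns of batch 1, called replicates a and b, which pair with no library. No 2 replicates were copies (chi-square per degree of freedom of at least 22.5).

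Each comparison was fitted to the groups compared, over all genes, in R 4.3.3 with edgeR 4.0.16 (filterByExpr at a minimum count of 10 and total of 15, TMM, glmQLFit and glmQLFTest), with Benjamini-Hochberg adjustment. The SE is the log2 fold change over the square root of F. Code was tested on simulated data. Alternatives were DESeq2 1.42.0, RLE or library-size scaling, other filters, all 4 groups of a batch, the replicate block and leaving out each library. The tests carried no replicate block, since not every same-numbered pair was correlated above 0.1. Members, complex lists and tests were chosen with earlier results of these data known. Eif4e, Eef1a1 and Eef2 were named throughout, called members by complex, the 5 smallest p per direction with every library, and otherwise the 3 smallest p.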

Additional observations from a re-analysis of the deposited data

Results flagged for a closer look

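For 9 of 66 tested members the difference between axon and soma was itself different in central and peripheral axons by edgeR's test of the difference. That is 13.6% of members, near the 13.1% of all genes called. The difference is given for Cre libraries on the log2 scale, central minus peripheral. It was -2.11 for Eef1b2, -2.22 for Eif2s2, -1.45 for Eif1, -1.75 for Eef1g, 1.73 for Eif2b1, -1.67 for Eif3j1, -1.88 for Eif5b, 1.08 for Eif4a2 and -1.98 for Eif4ebp1. Each kind of axon was made in its own batch.

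In 26 of 203 groups of 4 libraries examined (28 members and the summed share), 1 library stood far from the other 3 by Dixon's criterion, which chance meets in about 1 of 20 groups. The group of 3 was not examined. In the batch 1 soma controls, replicate b was high for Eif1a at 87.3 CPM, Eif2ak1 at 211, Eif2b1 at 70.6, Eif2s3x at 24.4 and Eif4ebp2 at 57.7 CPM. Replicate 1 of that group was high for Eef1e1 at 168, Eif3g at 50.7 and Eef2kmt at 3.43 CPM, replicate a for Eif2d at 141 CPM, and replicate 3 for Eif2s3y at 0.108 CPM, where the other 3 were at 0. In central axon controls, replicate 3 was high for Eef1a1 at 892, Eef2kmt at 97.2 and Eif4ebp1 at 120.2 CPM, low for Eif4ebp2 at 13.2 CPM, and had 1.14% of its counts in factor genes, while replicate 4 was high for Eef1b2 at 265 CPM.

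In peripheral axon Cre libraries, replicate 1 was high for Eif1 at 1031 and Eif4ebp1 at 187 CPM and low for Eif5b at 262 and Eif2d at 8.51 CPM, and replicate 4 was low for Eif2s3x at 7.11 CPM. Among somas, batch 2 Cre replicate 8 was high for Eef2kmt at 24.3 CPM and replicate 6 low for Eif2s3y at 7.97 CPM. Batch 1 Cre replicate 4 was low for Eif3g at 138 CPM and replicate 1 low for Eif4ebp2 at 10.05 CPM, and batch 2 control replicate 6 was high for Eef1a2 at 132 CPM.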

How the results depend on the processing

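Of 36 called gene results none changed sign in any alternative run, and 9 were called in every one: Eif5a, Eif3g, Eif4a2 and Eif6 in peripheral axon against soma, Eef1b2 and Eif2s2 in central against peripheral axon, and Eef1a2, Eef1g and Eif2ak1 between batches. Counts of called members that moved, where the cause was not tested, were as follows. For batch 1 soma Cre against control (0) they were 3 with DESeq2, 2 with library size alone, 1 with no low-count filter and 3 in the fit of all 4 groups. The calls over all genes were 1902, 2244, 1700 and 2114 in the same order (516 in the main fit). For central axon against soma (7) the members called were 1 with library size alone and 0 with all 4 groups (2439 and 15 of all genes). For peripheral axon against soma (14) they were 4 with all 4 groups, all lower in axon (1404 of all genes). With DESeq2 they were 1 for each Cre minus control comparison (0 in edgeR) and 16 for central against peripheral axon (9). DESeq2 called 567 of all genes in central axon Cre minus control, and its calls over all genes in the other fits of this kind are not given here.

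Leaving out each library in turn gave 0 to 4 calls in batch 1 somas, 0 to 5 in batch 2 somas, 0 to 11 in central and 8 to 19 in peripheral axon against soma (19 without peripheral axon replicate 1). It gave 0 to 1 in central axon Cre minus control, 0 to 0 in peripheral, 3 to 11 in central against peripheral axon (11 without peripheral axon replicate 1), 4 to 7 between batches and 0 to 0 in both axons against control. The 4 calls in batch 1 somas came without control replicate 3 (3094 of all genes). The 5 in batch 2 somas came without control replicate 5 (1826 of all genes). For central against peripheral axon and between batches, the calls over all genes with 1 library left out are not given here.

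Log2 values that changed sign, none of them called, were Eif4e in peripheral axon Cre against control (-0.066 with library size alone), Eef2 in batch 2 somas (-0.088, library size alone) and Eef2 in central axon Cre minus control (-0.32, library size alone). Eef1a1 in peripheral axon Cre minus control was 0.029 with DESeq2, 0.029 with RLE, 0.23 with library size alone and 0.073 with 10 counts in every library, and Eef2 in central against peripheral axon was 0.042 with library size alone and 0.034 with no filter. With 1 library left out, Eif4e ranged from -0.038 to 0.80 in central axon, -0.28 to 0.35 in peripheral axon and -6.42 to 0.51 in batch 1 somas against control, and Eef2 from -0.12 to 0.37 in batch 2 somas. In central axon against soma Eef1a1 ranged from -0.070 to 0.40 and Eef2 from -0.062 to 0.35. In central axon Cre minus control Eef2 ranged from -0.22 to 2.87 and Eif4e from -0.34 to 7.00. In peripheral axon Cre minus control Eef1a1 ranged from -0.29 to 0.20, and in central against peripheral axon Eef2 from -0.32 to 0.18.

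The replicate block gave 8 calls in central axon against soma (Eef1g lost, Eif1a and Eif1ad gained) and 0 in the comparisons with control and in central axon Cre minus control. Under it Eif4e in peripheral axon Cre against control was -0.47 and Eef2 in central axon Cre minus control -0.29. In central axon against soma the deviations of same-numbered libraries correlated at -0.00494 to 0.196 (mean 0.116, against -0.0383 for other pairs), and 2 of 4 libraries correlated best with their own number. Since not every pair was above 0.1, the numbers were not taken as pairs. The median of the members in batch 1 somas against control, -0.92, was 0.48 with the block (1.42 for all genes), -0.22 with all 4 groups and 0.10 with library size alone. No paired analysis was possible for peripheral axon against soma, nor where both batches enter, because the numbers are not shared.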
